A study of Mus musculus with 50 samples.

Results

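The transcripts described here are those of 6 genes of neurons that release γ-aminobutyric acid (GABA), the main inhibitory transmitter of the forebrain. They are the synthesizing enzymes Gad1 and Gad2, the vesicular transporter Slc32a1, and the cytosolic calcium-binding proteins Pvalb, Calb1 and Calb2. Probe sets were taken when the platform annotation gave 1 of these symbols and no other, which selected 7 of the 12488 probe sets and 6 of the 8252 genes that have such a probe set. Pvalb has 2 probe sets and each other gene has 1. All 6 genes passed the filter on low signals. The rule reads gene symbols only, and the genes were chosen with earlier results of these data known.

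Glutamate decarboxylase makes GABA from glutamate, and the Slc32a1 protein loads GABA into synaptic vesicles. Parvalbumin, calbindin and calretinin, the products of Pvalb, Calb1 and Calb2, bind calcium with EF-hand domains and are used to tell classes of inhibitory neurons apart. In cortex and hippocampus parvalbumin marks fast-spiking basket and chandelier cells. Calbindin is also made by some excitatory neurons, among them dentate granule cells, and calretinin by mossy cells of the mouse dentate gyrus as well as by interneurons.

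The study measured neocortex and hippocampus of 8-week-old mice labelled Wild-type, S1P2-KO and S1P3-KO, genotypes defined by the loss of a receptor for the lipid sphingosine 1-phosphate. Seizures occur sporadically in S1P2-deficient mice between weeks 4 and 7, and S1P3-deficient mice lack them. Each tissue gave 10 Wild-type arrays (5 male and 5 female mice), 10 S1P2-KO arrays (5 and 5) and 5 S1P3-KO arrays (2 male and 3 female mice). The titles call the arrays biological replicates. The sources used here do not give the strain, the alleles or whether both tissues came from the same animals, and the group sizes were taken from the titles. The design text conflicts with them: it gives 10 wild-type mice and then 5 and 10 mice of 2 knockout groups that it both prints as S1P2-deficient. The genotype of each array therefore rests on its title.

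Values are MAS5 signals, the linear probe-set intensities of Affymetrix arrays, scaled so that the trimmed mean of every array lay between 1000.56 and 1000.66. Levels are given as mean ± SD, and differences as log2 estimates ± SE of log2(signal + 30.7) from limma. A difference was called when its Benjamini-Hochberg adjusted p over all 8805 tested probe sets was under 0.05. The probe set for S1pr2 was not called lower in the arrays labelled S1P2-KO (-0.10 ± 0.14 in neocortex, -0.24 ± 0.16 in hippocampus). That for S1pr3 was not called lower in the arrays labelled S1P3-KO either (-0.26 ± 0.17 and -0.69 ± 0.18). Where these probes lie relative to the deleted sequence is not given, so they cannot check the genotype labels. Among markers of dissected tissue, 7 of 9 tested genes of the dentate gyrus and hippocampal fields were called higher in Wild-type hippocampus and 0 lower, for example Dsp by 3.03 ± 0.23 and Lct by 2.41 ± 0.15. A log2 ratio of the 3′ over the 5′ control probe sets, averaged over Gapdh and β-actin, rises when RNA is degraded. This 3′/5′ ratio exceeded 1 on 3 hippocampus arrays and on none of the neocortex arrays. These were Wild-type replicate 4 (1.20), S1P2-KO replicate 7 (1.37) and S1P3-KO replicate 5 (4.46). The arrays measured whole tissue, in which fewer cells of a type and less RNA per cell cannot be told apart.

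The upstream sequences of Pvalb and Gad1 are shown because the first transcript differed between the tissues in all 3 genotypes and the second in none. RefSeq's promoter table for GRCm38.p6 held 4 of the 6 genes (Gad1, Gad2, Slc32a1 and Pvalb). Each run is the 250 bases before the annotated start, written 5′ to 3′ on the gene's strand. The Gad1 window lies at chr2:70561879-70562128 (+ strand) and that of Pvalb at chr15:78206401-78206650 (− strand, the outermost of 2 annotated starts). Capitals mark matches on either strand to 6 searched motifs. The core of the TATA box was searched as TATAAA. The box of proximal promoters named after its letters was searched as CCAAT. The GC box, a site type of Sp factors, was searched as GGGCGG. The E box of basic helix-loop-helix factors was searched as CANNTG. The cAMP response element was searched as TGACGTCA. The core shared by many homeodomain factors was searched as TAATTA.
Gad1: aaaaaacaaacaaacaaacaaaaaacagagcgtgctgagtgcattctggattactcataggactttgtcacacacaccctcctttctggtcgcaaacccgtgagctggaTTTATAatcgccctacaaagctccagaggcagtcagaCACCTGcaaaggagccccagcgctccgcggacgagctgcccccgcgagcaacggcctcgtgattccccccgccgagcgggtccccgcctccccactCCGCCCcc
Pvalb: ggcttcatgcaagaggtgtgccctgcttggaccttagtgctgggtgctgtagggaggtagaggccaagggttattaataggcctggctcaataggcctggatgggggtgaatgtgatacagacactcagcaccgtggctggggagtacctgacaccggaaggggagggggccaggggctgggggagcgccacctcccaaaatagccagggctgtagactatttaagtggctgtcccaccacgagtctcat
The Gad1 window holds 1 TATA box core, 1 E box and 1 GC box, which begin 141, 104 and 8 bases before the start, and the Pvalb window holds none of the 6 motifs. Among 32851 promoter windows of this length, the TATA box core occurs in 12.4%, the CCAAT box in 33.8%, the GC box in 32.7%, the E box in 66.2%, the cAMP response element in 1.55% and the homeodomain core in 4.84%. The matches describe letters only, and the arrays did not measure what binds there. The GC content is 58% in the Gad1 window and 58.4% in the Pvalb window, against a median of 52.4% over all windows.

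Gad1 encodes GAD67, the decarboxylase isoform found throughout the cell. Its mean signal was 7905 ± 505 in Wild-type neocortex (n = 10) and 7924 ± 853 in Wild-type hippocampus (n = 10). Arrays labelled S1P2-KO gave 7425 ± 519 in neocortex and 7501 ± 878 in hippocampus (n = 10 each). The arrays labelled S1P3-KO gave 7967 ± 932 in neocortex and 9165 ± 2174 in hippocampus (n = 5 each). In neocortex its coefficients of variation were 6.39% (Wild-type), 6.99% (S1P2-KO) and 11.7% (S1P3-KO). The 5 S1P3-KO hippocampus arrays spread from 6525 to 12013, and the highest was replicate 5, the array with the highest 3′/5′ ratio. All neighbouring groups overlapped when ordered by their means.

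**Figure D1:**
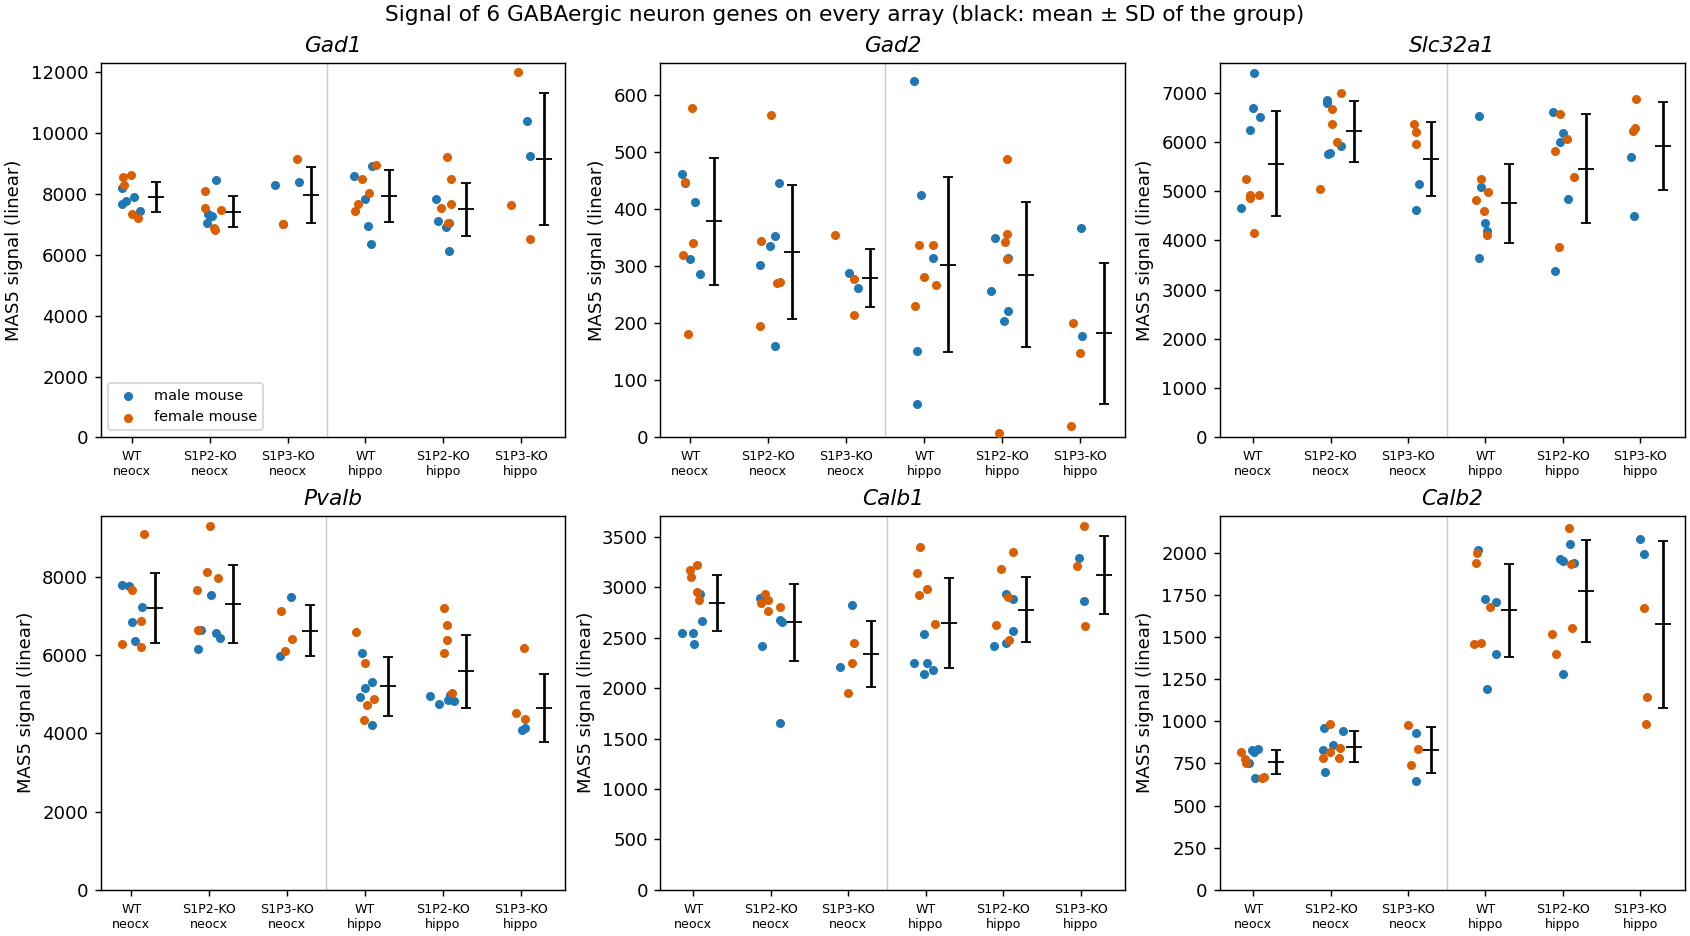
MAS5 signal (linear, y axis) of the 6 genes on all 50 arrays, with neocortex on the left and hippocampus on the right of each panel. Points are arrays coloured by sex and black bars are mean ± SD. Calb2 arrays of hippocampus lie above all neocortex arrays of the same genotype, most Pvalb arrays of hippocampus lie below, and Gad1 groups overlap.

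Gad2 encodes GAD65, the isoform concentrated at nerve terminals. Its probe set was dim, with a mean signal of 305 that exceeded 45.4% of all probe sets. In neocortex the signal ran from 182 to 577 in Wild-type (median 377), from 160 to 566 in S1P2-KO (median 319) and from 214 to 354 in S1P3-KO (median 277). All 5 S1P3-KO neocortex arrays lay below the Wild-type median, but within the Wild-type range. In hippocampus it ran from 58.9 to 626 in Wild-type (median 298) and from 6.9 to 488 in S1P2-KO (median 314). The S1P3-KO hippocampus arrays read 20.8, 148, 177, 200 and 367.

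The 3 lowest Gad2 signals in hippocampus, 6.9, 20.8 and 58.9, came from exactly the 3 arrays whose 3′/5′ ratio exceeded 1. The other 22 hippocampus arrays lay between 148 and 626. The estimated difference of S1P3-KO from Wild-type hippocampus was -0.73 ± 0.49 with all arrays (adjusted p = 0.651) and -0.50 ± 0.27 without those 3 (adjusted p = 0.675). Adjusted for the ratio it stood at -0.14 ± 0.39. The part of RNA integrity in the Gad2 differences was not tested beyond these fits, and none of them gave a call.

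**Figure D2:**
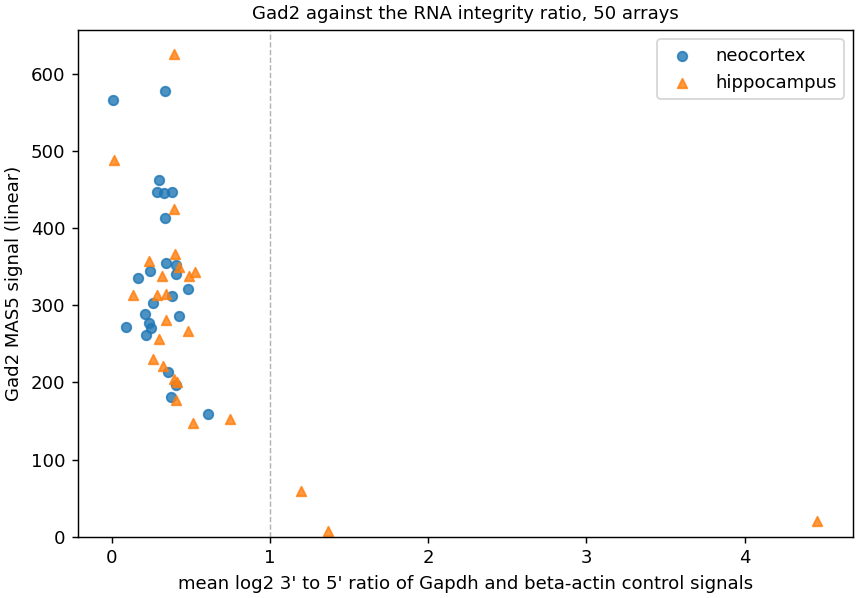
Gad2 signal (linear MAS5, y axis) against the log2 3′/5′ ratio of the Gapdh and β-actin controls (x axis), 1 point per array, circles for neocortex and triangles for hippocampus. The dashed line marks a ratio of 1, and the 3 arrays to its right have Gad2 signals of 58.9, 6.9 and 20.8.

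Slc32a1, the vesicular GABA transporter gene, had a bright probe set (mean signal 5552). In neocortex it averaged 5560 ± 1067 in Wild-type, 6213 ± 625 in S1P2-KO and 5654 ± 745 in S1P3-KO. In hippocampus the means were 4748 ± 794, 5458 ± 1112 and 5913 ± 892 in the same order of genotypes. Wild-type was the lowest group in both tissues, yet every neighbouring pair of groups overlapped. In S1P2-KO neocortex 9 of 10 arrays lay above the Wild-type median and 0 above the highest Wild-type array. In hippocampus the Wild-type median was exceeded by 8 of 10 S1P2-KO and 4 of 5 S1P3-KO arrays.

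Pvalb, the parvalbumin gene, was lower in hippocampus than in neocortex in all 3 genotypes. The brighter of its probe sets ran from 6195 to 9090 in Wild-type neocortex (median 7051) and from 4209 to 6589 in Wild-type hippocampus (median 5045). In the arrays labelled S1P2-KO it ran from 6161 to 9286 (median 7087) in neocortex and from 4749 to 7204 (median 5010) in hippocampus. The S1P3-KO arrays read 5981, 6104, 6411, 7136 and 7479 in neocortex and 4090, 4125, 4365, 4515 and 6178 in hippocampus. Of the hippocampus arrays, 9 of 10 in Wild-type, 7 of 10 in S1P2-KO and 4 of 5 in S1P3-KO lay below every neocortex array of their genotype, so the ranges touched only through a few high hippocampus arrays.

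The hippocampus minus neocortex difference of this probe set was -0.47 ± 0.08 in Wild-type (adjusted p = 2.17e-05, limma). It was -0.39 ± 0.08 in S1P2-KO (adjusted p = 0.000386) and -0.53 ± 0.12 in S1P3-KO (adjusted p = 0.00117). With the 3 high-ratio arrays left out, the S1P3-KO difference was -0.61 ± 0.12. Its call was lost when only the 10 S1P3-KO arrays were fitted (-0.55 ± 0.14, adjusted p = 0.0714). The test of whether the tissue difference depended on genotype gave 0.08 ± 0.12 for S1P2-KO and -0.06 ± 0.14 for S1P3-KO, with neither called.

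The dimmer Pvalb probe set (mean signal 358) carries a suffix (f) that marks less specific probes. The brighter one also carries a suffix (i), unlike those of the other genes, and its specificity was not tested. Both were made from the same sequence record. The dimmer one averaged 472 ± 110 in Wild-type neocortex and 272 ± 66.8 in Wild-type hippocampus. Its tissue difference was -0.73 ± 0.15 in Wild-type (adjusted p = 0.000212) and -0.68 ± 0.15 in S1P2-KO (adjusted p = 0.000505). In S1P3-KO it was -0.51 ± 0.21 and was not called (adjusted p = 0.109), although adjustment for the 3′/5′ ratio gave -0.68 ± 0.22 (adjusted p = 0.0421). Around the group means the probe sets were at most weakly related over arrays (Pearson r = 0.01 in neocortex and 0.17 in hippocampus, n = 25 each). The direction between tissues was nevertheless shared by both.

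Calb2, the calretinin gene, was about 2.12-fold higher in hippocampus than in neocortex of Wild-type mice on the fitted scale, the widest tissue difference of the 6 genes. It ran from 663 to 836 in Wild-type neocortex (median 764) and from 1190 to 2016 in Wild-type hippocampus (median 1691). In S1P2-KO it ran from 702 to 983 in neocortex (median 837) and from 1278 to 2144 in hippocampus (median 1932). The S1P3-KO arrays read 646, 742, 837, 932 and 980 in neocortex and 984, 1143, 1673, 1992 and 2082 in hippocampus. Every hippocampus array exceeded every neocortex array of its genotype, although in S1P3-KO the margin came down to 980 against 983.5. That lowest hippocampus value was replicate 5, with the 3′/5′ ratio of 4.46.

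The Calb2 tissue difference was 1.08 ± 0.11 in Wild-type (adjusted p = 3.51e-11), 1.02 ± 0.11 in S1P2-KO (adjusted p = 2.04e-10) and 0.87 ± 0.15 in S1P3-KO (adjusted p = 4.65e-05), all from limma. With the high-ratio arrays left out, the S1P3-KO difference was 1.01 ± 0.15. The spread was wider in hippocampus, with coefficients of variation of 16.8% (Wild-type) and 31.4% (S1P3-KO), against 9.22% and 16.5% in neocortex. In the order of the 6 group means, only the step from S1P3-KO hippocampus (1575 ± 494) to S1P2-KO neocortex (850 ± 89.5) separated neighbours whose arrays did not overlap.

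Calb1, the calbindin gene, was called between the tissues only in the arrays labelled S1P3-KO. It averaged 2846 ± 279 in Wild-type neocortex and 2643 ± 448 in Wild-type hippocampus. The S1P2-KO means were 2651 ± 382 and 2777 ± 323. The arrays labelled S1P3-KO read 1950, 2212, 2246, 2447 and 2827 in neocortex and 2615, 2867, 3208, 3293 and 3611 in hippocampus. Thus 4 of the 5 S1P3-KO hippocampus arrays lay above all 5 neocortex arrays of that genotype. The highest of them was replicate 5, the array with the 3′/5′ ratio of 4.46.

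The tissue difference of Calb1 stood at -0.12 ± 0.08 in Wild-type mice, at 0.07 ± 0.08 in those labelled S1P2-KO, neither called, and at 0.41 ± 0.11 in S1P3-KO (adjusted p = 0.0130, limma). The S1P3-KO call was lost without S1P3-KO neocortex replicate 3 (0.33, adjusted p = 0.0679), without S1P3-KO hippocampus replicate 1 (0.35, adjusted p = 0.0517) and when only S1P3-KO arrays were fitted (0.39, adjusted p = 0.228). Over 14 alternative runs the S1P3-KO tissue estimate ran from 0.37 to 0.47. They included the fits without the high-ratio arrays and with the 3′/5′ ratio as a covariate. Compared directly, the S1P3-KO effect was 0.52 ± 0.14 higher in hippocampus than in neocortex. This was the second smallest p of 8805 probe sets (unadjusted p = 0.000507), but it did not pass adjustment (adjusted p = 0.876). A difference of the Calb1 tissue effect between genotypes was therefore not established.

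Counted together, 2 of the 6 genes were called between the tissues in Wild-type (Calb2 higher, Pvalb lower), where 14.2% of all tested probe sets were called, 7.64% higher and 6.6% lower. The count was 2 of 6 in S1P2-KO, with the same directions, against 14.5% of all probe sets (7.47% higher, 6.98% lower). It was 3 of 6 in S1P3-KO, with Calb1 added to the higher genes, against 11.7% (5.79% higher, 5.86% lower). Gad1, Gad2 and Slc32a1 were not called in any genotype. The Slc32a1 difference was -0.22 ± 0.11 in Wild-type (adjusted p = 0.182), -0.21 ± 0.11 in S1P2-KO (adjusted p = 0.218) and 0.04 ± 0.15 in S1P3-KO. For Gad1 the Wild-type estimate was 0.00 with a 95% interval from -0.16 to 0.15, and for Gad2 the interval ran from -1.05 to 0.24.

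**Figure D3:**
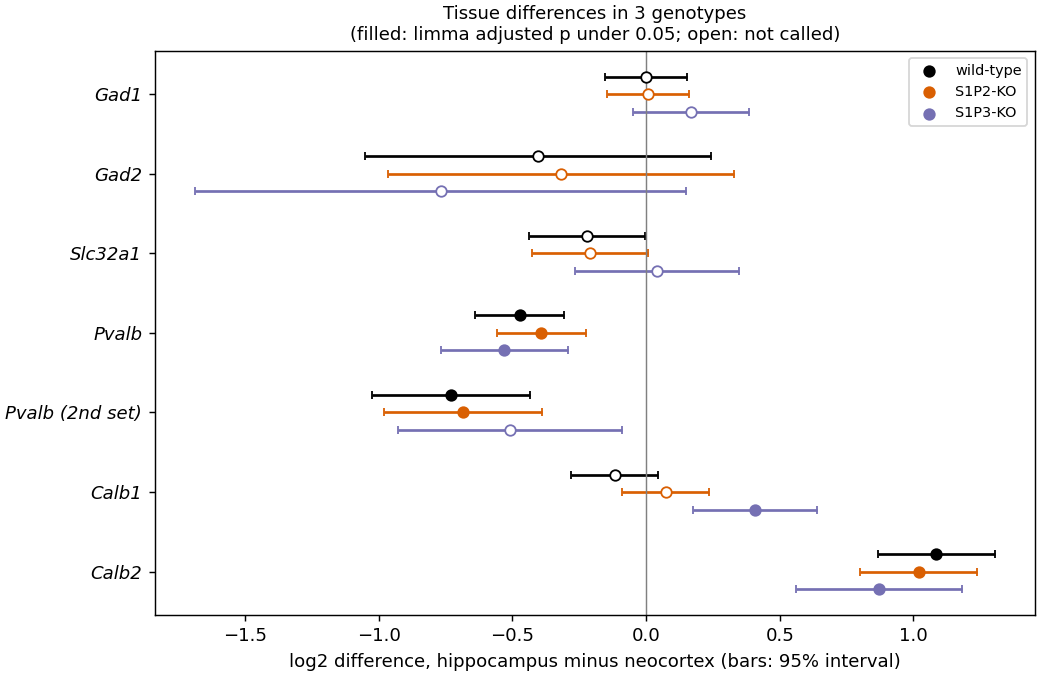
Log2 difference of hippocampus minus neocortex (x axis) with 95% intervals for the 7 probe sets (y axis) in 3 genotypes. Filled points passed an adjusted p of 0.05 in limma. Calb2 lies to the right of 0 and Pvalb to the left in every genotype, Calb1 is filled in S1P3-KO alone, and Gad1, Gad2 and Slc32a1 are open throughout.

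Some other genes of inhibitory signalling, taken from whole pathway and marker lists, also differed between the tissues. In this Wild-type contrast 14.2% of all probe sets were called. Of 14 listed genes of GABA synthesis, uptake and breakdown, only 5 were on the array and 4 were tested. Among the 4 tested, 2 were called higher in Wild-type hippocampus and 0 lower. These were Slc1a1, a neuronal transporter for glutamate and cysteine (0.59 ± 0.08), and Aldh9a1, an aldehyde dehydrogenase able to form GABA from its aldehyde (0.36 ± 0.11). Of 14 tested GABA receptor subunits and anchors, 2 were called higher and 4 lower. Gabrb1 was higher by 0.64 ± 0.08, whereas Gabrd (-1.24 ± 0.21), Gabra3 (-1.21 ± 0.29) and Gabrb2 (-1.17 ± 0.27) were lower. The median difference of the receptor list was 0.00, against 0.01 over all probe sets.

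Of 25 tested EF-hand proteins other than the members, 3 were called higher and 4 lower in Wild-type hippocampus, with a list median of 0.03. Of all tested probe sets, 7.64% were called higher and 6.6% lower in this contrast. Hpca, encoding the neuronal calcium sensor hippocalcin, was higher by 1.01 ± 0.09. Tnnc1, encoding a troponin C, stood at -2.36 ± 0.28, S100a10 at -0.64 ± 0.12 and Vsnl1, encoding visinin-like protein, at -0.52 ± 0.06. Among 18 tested markers of interneuron classes, 5 were called lower and 0 higher, and the list median was -0.15. The neuropeptide genes Npy (-0.91 ± 0.09) and Tac1 (-0.58 ± 0.16) and the transcription factor genes Satb1 (-0.76 ± 0.09) and Maf (-1.08 ± 0.34) were among them. Sst, the somatostatin gene, was not called (0.15 ± 0.07, adjusted p = 0.133).

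Markers of tissue that a dissection could carry along were read in the same contrast, in which 14.2% of all probe sets were called. All 5 tested striatal markers were estimated lower in Wild-type hippocampus and 3 were called, namely Penk (-1.02), Foxp1 (-1.03) and Pde1b (-0.41). The summed signal of the 9 striatal markers on the array ran from 9764 to 15858 in Wild-type neocortex and from 6432 to 8718 in Wild-type hippocampus. Of 7 thalamic and habenular markers, 1 was called higher (Prkcd, 0.83) and 3 lower, with sums of 4172 to 5650 in neocortex and 3807 to 5199 in hippocampus. Of 7 cerebellar markers, 1 was called higher and 1 lower (Car8, -1.09), with sums of 2807 to 4594 and 3316 to 4508. Of 5 skeletal muscle markers, 0 were called higher and 1 lower (Acta1, -0.40), with sums of 1376 to 2131 and 1420 to 2179. Of 7 markers of choroid plexus and meninges, 1 was called higher (Kl, 2.96) and 1 lower, with sums of 38097 to 48114 and 25415 to 79170. Between 0 and 4 markers of each of these lists lay below the filter (4 of the striatal ones), and the part of these tissues in the differences of Pvalb, Calb1 and Calb2 was not tested.

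No member was called between either knockout and Wild-type. In S1P2-KO the count was 0 of 6 in neocortex and 0 of 6 in hippocampus, where limma called 0% of all probe sets in either tissue. At an unadjusted p under 0.05, 0 of the 6 genes passed in either tissue, against 766 probe sets in neocortex and 482 in hippocampus. The largest S1P2-KO estimates among the bright genes belonged to Slc32a1, at 0.18 ± 0.09 in neocortex (95% interval -0.01 to 0.36) and 0.19 ± 0.12 in hippocampus (-0.06 to 0.43). For Gad1 the intervals ran from -0.20 to 0.02 in neocortex and from -0.27 to 0.11 in hippocampus.

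In S1P3-KO the count was 0 of 6 in neocortex (0% of all probe sets) and 0 of 6 in hippocampus (0.0341%). At an unadjusted p under 0.05, 1 gene passed in neocortex and 2 in hippocampus, against 914 and 827 probe sets. These were Calb1 in both tissues and Slc32a1 in hippocampus. Calb1 was estimated lower in S1P3-KO neocortex (-0.30 ± 0.10, adjusted p = 0.271), where all 5 arrays lay below the Wild-type median and 3 below every Wild-type array. In hippocampus it was estimated higher (0.22 ± 0.10, adjusted p = 0.491), with all 5 arrays above the Wild-type median and 1 above every Wild-type array. That array was replicate 5 (3611), with the 3′/5′ ratio of 4.46. Slc32a1 in hippocampus stood at 0.31 ± 0.14 (adjusted p = 0.508).

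**Figure D4:**
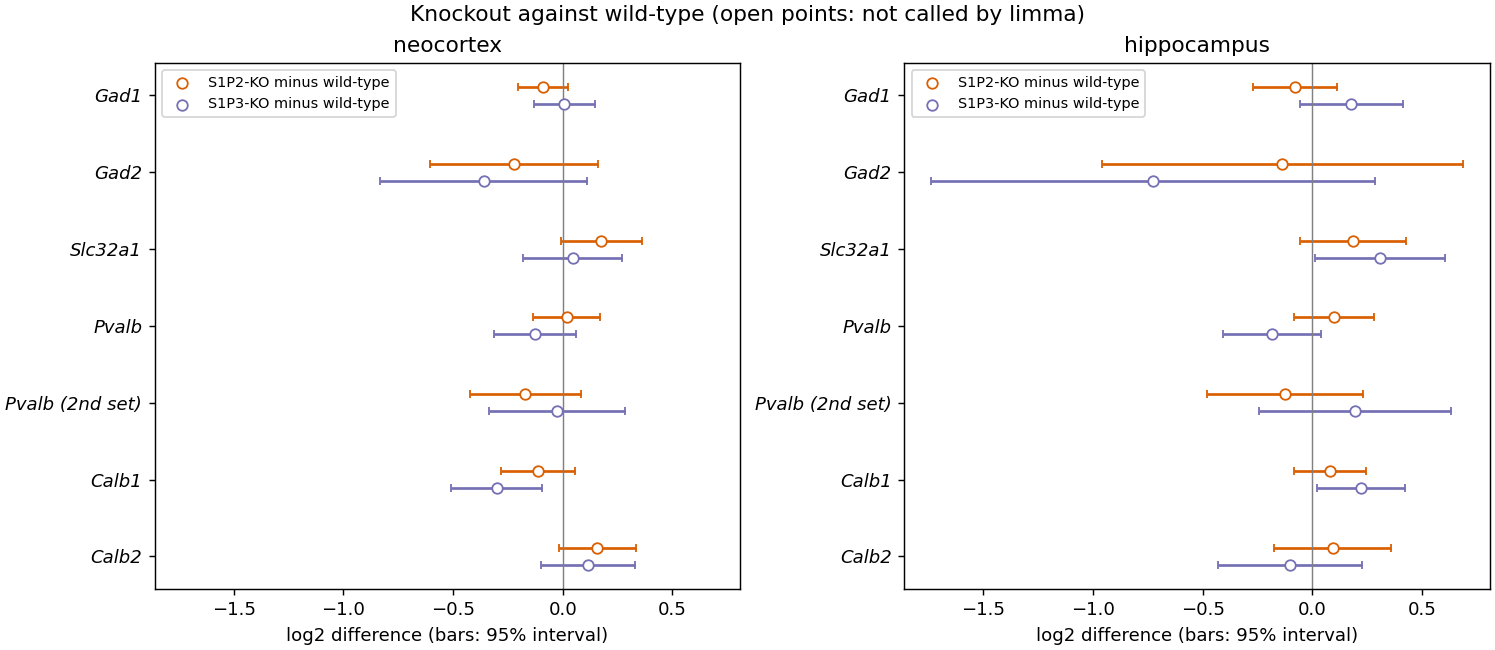
Log2 difference from Wild-type (x axis) with 95% intervals for the 7 probe sets (y axis), neocortex on the left and hippocampus on the right. All points are open because no difference passed an adjusted p of 0.05. The intervals of Gad2 are the widest, and Calb1 of S1P3-KO lies left of 0 in neocortex and right of 0 in hippocampus.

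The arrays labelled S1P2-KO, from the genotype with seizures, were also compared directly with those labelled S1P3-KO. The count called was 0 of 6 in each tissue, as it was for 0% of all probe sets. At an unadjusted p under 0.05 in limma, 998 of 8805 probe sets passed in hippocampus. Those of Pvalb (0.28 ± 0.11, adjusted p = 0.347) and Gad1 (-0.26 ± 0.11, adjusted p = 0.408) were among them. With the 3 high-ratio arrays left out, Pvalb and Gad1 stood at 0.34 ± 0.11 and -0.19 ± 0.11. The Pvalb value is that of the brighter probe set. The dimmer one had the opposite sign (-0.32 ± 0.21, adjusted p = 0.541), and the mean over both probe sets was -0.02 ± 0.13. In a fit blocked by replicate number the dimmer one stood at 0.13 ± 0.35. Within 1 tissue such a block joins same-numbered arrays of different genotypes, hence of different mice. Replicates 3 to 5 are female in S1P3-KO and male in S1P2-KO, so this fit cannot decide the sign. The tests of whether a knockout effect differed between tissues called 0 of 6 members and 0% of probe sets for either knockout.

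The same lists gave 0 called genes in each knockout comparison. In S1P2-KO against Wild-type neocortex the smallest p-values of the GABA lists belonged to Glul, the glutamine synthetase gene (0.34 ± 0.12, adjusted p = 0.381), and Gabbr1, encoding a GABA-B receptor subunit (0.11 ± 0.05, adjusted p = 0.455). In S1P2-KO hippocampus they were Glul (0.29 ± 0.12, adjusted p = 0.821) and Gabrb2 (0.68 ± 0.31, adjusted p = 0.888). Dlx1, a transcription factor gene of inhibitory neurons, was estimated at -0.32 ± 0.13 in S1P2-KO neocortex and -0.30 ± 0.14 in S1P2-KO hippocampus. In S1P3-KO it was estimated at -0.37 ± 0.16 in neocortex and -0.37 ± 0.18 in hippocampus, and none of these differences was called. The other interneuron markers did not share this direction throughout. Of the 18 tested, Dlx1 included, 12 were estimated higher and 6 lower in S1P2-KO neocortex, and 9 and 9 in S1P2-KO hippocampus. In S1P3-KO 7 were estimated higher and 11 lower in each tissue.

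Sex was examined as a further possible source of spread. Neither tissue had a member called between females and males over all genotypes (0 of 6 in each, against 0.0568% of probe sets in each). In Wild-type hippocampus the Calb1 signals of the 5 males, 2140 to 2536, lay wholly below those of the 5 females, 2638 to 3397. In Wild-type neocortex males ran from 2439 to 2934 and females from 2869 to 3218, with 1 male inside the female range. The female minus male difference in Wild-type was 0.40 ± 0.10 in hippocampus (adjusted p = 0.357) and 0.22 ± 0.11 in neocortex (adjusted p = 0.603), neither called by limma. In this Wild-type comparison 0.0454% of probe sets were called in hippocampus and 0.0795% in neocortex. The 3 S1P3-KO neocortex females read 1950 to 2447 and did not lie above the 2 males (2212 and 2827).

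Slc32a1 showed the opposite order in Wild-type neocortex, where males averaged 6301 ± 1011 and females 4818 ± 407 (n = 5 each). In S1P3-KO neocortex the 2 males read 4619 and 5141 and the 3 females 5947 to 6371. The sexes did not overlap there, but groups of 2 and 3 arrays separate easily. In Wild-type neocortex 1 of the 5 males lay among the females. How many of all probe sets separate the sexes in a group was not counted. S1P2-KO neocortex males (6214 ± 558) and females (6213 ± 754) had nearly the same mean. The Wild-type difference was -0.37 ± 0.10 and was not called (adjusted p = 0.226). The brighter Pvalb probe set also separated the sexes in S1P2-KO hippocampus, with males at 4749 to 4979 and females at 5042 to 7204. Over all genotypes its female minus male difference in hippocampus was 0.21 ± 0.08 (adjusted p = 0.891). The dimmer Pvalb probe set had the opposite sign, at -0.10 ± 0.16 in hippocampus and -0.31 ± 0.11 in neocortex (adjusted p = 0.774), and none was called by limma.

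Whether knockout effects differed between the sexes was tested after these values had been seen, in 4 comparisons. The S1P3-KO effect on Slc32a1 in neocortex was 0.71 ± 0.18 higher in females than in males (adjusted p = 0.0467, limma), the 1 member called of 6, where 1.16% of all probe sets were called. The result rests on 2 S1P3-KO males. Its call was lost in 18 of 25 fits that each left out 1 array, among them the S1P3-KO arrays 2, 3, 4 and 5, with adjusted p between 0.00881 and 0.186. In hippocampus the same estimate was 0.33 ± 0.29 and was not called (adjusted p = 0.633), with 0 of 6 members against 0.0454% of probe sets. For S1P2-KO 0 of 6 members and 0% of probe sets were called in either tissue.

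**Figure D5:**
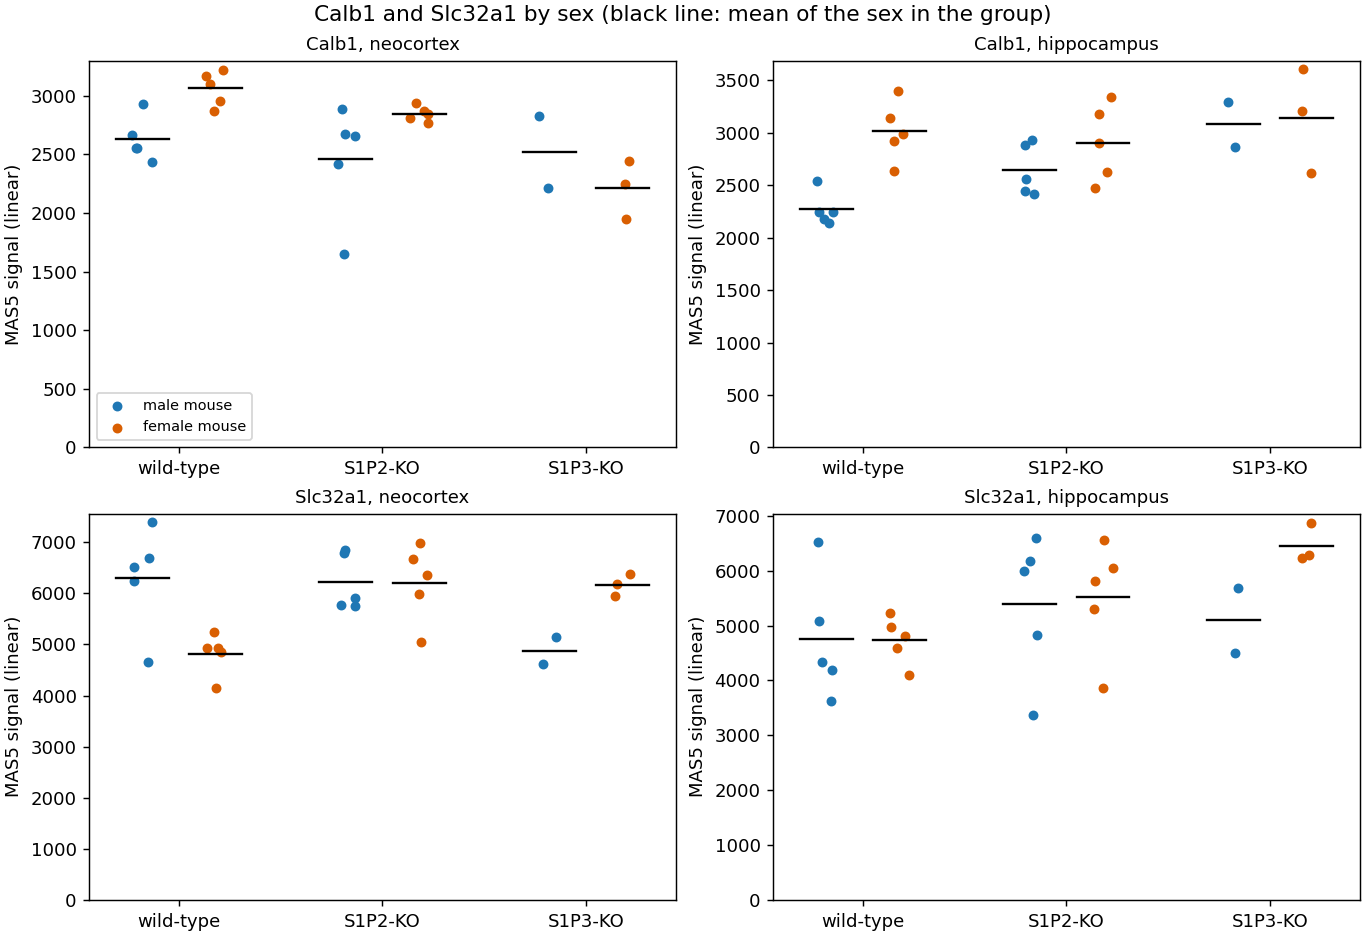
Linear MAS5 signal (y axis) of Calb1 (top) and Slc32a1 (bottom) in neocortex and hippocampus by genotype (x axis), 1 point per array, with males on the left and females on the right of each genotype and black lines at the means. Wild-type hippocampus females lie above all males for Calb1. For Slc32a1 in neocortex the male mean is the higher one in Wild-type and the lower one in S1P3-KO.

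No pair of the 6 genes passed a test of varying together between arrays of a group. Pvalb was read by its brighter probe set, which was at most weakly related to the dimmer one. Over 30 pairs (15 in each tissue, n = 25 arrays), Pearson r of the deviations from genotype and sex means ran from -0.45 to 0.46, and 0 passed Benjamini-Hochberg adjustment in a permutation test. Gad1 and Gad2 gave r = -0.42 and Spearman rho = -0.24 in hippocampus (permutation p = 0.0380 and 0.255, adjusted 0.369 and 0.764). With the 3 high-ratio arrays left out, r was 0.08, so that relation rested on them. Gad2 and Slc32a1 in hippocampus gave r = -0.45 and rho = -0.52 (permutation p = 0.0252 and 0.00858, adjusted 0.369 and 0.199), with r = -0.39 without those arrays and -0.33 without the 2 arrays farthest from the Gad2 median. Gad1 and Pvalb in hippocampus gave r = 0.46 and rho = 0.50 (permutation p = 0.0194 and 0.0133, adjusted 0.369 and 0.199), with r = 0.28 without those arrays and 0.32 without the 2 farthest from the Gad1 median.

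The genes whose deviations were most like those of each member were sought among 7922 probe sets over all 50 arrays, as a description, since all of them share the same arrays. For Gad1 these were Sar1b (r = 0.74), Pja1 (0.73) and Dnajb6 (0.72). For Gad2 they were Kif5c (0.83), Map2 (0.82) and Kif1b (0.82), but for Kif5c r was -0.02 in neocortex, 0.93 in hippocampus and 0.50 without the high-ratio arrays. For the brighter Pvalb probe set they were Elob (0.83), Arhgap39 (0.79) and Snrpb (0.78), with values between 0.77 and 0.82 without those arrays. Likeness to the dimmer Pvalb probe set was not computed. Slc32a1 was followed by Tubb2a (0.67), R3hdm1 (0.66) and Tmem43 (0.64). Calb2 was followed by Gaa (0.57), Grina (0.54) and Ptms (0.53). In that order r was 0.11, 0.16 and 0.18 in neocortex and 0.69, 0.61 and 0.61 in hippocampus. Without the high-ratio arrays it was 0.45, 0.44 and 0.46. Calb1, with the weakest likeness, was followed by Rfc5 (0.50), Zbtb45 (0.49) and Pkp2 (0.47).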

How the data were processed

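For 50 Affymetrix arrays the authors deposited linear MAS5 intensity values of each probe set, per the submitters' processing notes, with biotin-labelled cRNA per the labels' protocols. MAS5 subtracts mismatch signal, which makes low intensities noisy, and its version is not given in the sources used here. Arrays have no read depth, and their number limits precision. Probe sets were named from the platform table: 10855 had 1 symbol, 396 several and 1237 none. Values were analysed as log2(signal + 30.7), the 10th percentile of all signals, which understates changes of dim genes. Probe sets with a mean signal above the pooled 30th percentile (132.6) were tested, 8805 without 66 control sets. limma 3.58.1 in R 4.3.3 (lmFit, eBayes with trend) fitted 3 genotypes and sex within each tissue, and 6 groups with sex within tissue for tissue comparisons. Groups and sexes came from the titles. p-values measure the spread between these arrays. Every member was named in every comparison, with its 3 most correlated genes and, from each list, up to 4 called genes or the 2 of smallest p (Sst was named after its values were seen). Members and lists were chosen with earlier results of these data known. Genotype-by-sex comparisons were added after values were seen. The procedure was tested on simulated data. Alternatives varied the pseudocount, filter, scaling, sex term, array weights, 3′/5′ ratio, eBayes, arrays fitted, replicate block and each array left out.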

Additional observations from a re-analysis of the deposited data

Results flagged for a closer look

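Within groups of 10 or 5 arrays, 42 checks asked whether the highest or lowest array stood apart from the rest by Dixon's criterion, which chance meets in about 1 of 20 groups. Gad2 in S1P2-KO hippocampus had a lowest array at 6.9 (replicate 7), with the next at 205. That array had a 3′/5′ ratio of 1.37, and the part of RNA integrity was not tested. Pvalb in S1P3-KO hippocampus had a highest array at 6178 (replicate 5), with the next at 4515, and this array had the ratio of 4.46. Calb1 in S1P2-KO neocortex had a lowest array at 1652 (replicate 3), with the next at 2418. The S1P3-KO effect on Slc32a1 in neocortex differed between females and males by 0.71, in a comparison added after the values were seen.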

How the results depend on the processing

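In Wild-type and S1P2-KO the tissue counts of 2 called members, and in the comparisons of either knockout with Wild-type, of the knockouts, of effects between tissues and of sexes the count of 0, held under each alternative run. The S1P3-KO tissue count fell from 3 to 1 when only its 10 arrays were fitted, which leaves fewer arrays to estimate the spread, and ran from 2 to 3 with single arrays left out. The S1P3-KO effect between sexes in neocortex had 1 called member, Slc32a1, and 0 without the filter (adjusted p = 0.0623), with quantile normalization (0.0591), with array weights (0.0798) and with robust eBayes without a trend (0.0965). That count ran from 0 to 1 with single arrays left out. Where 1 of the 2 S1P3-KO males was left out, the lone one was assumed to vary like the other groups. Deviations of same-numbered arrays across tissues had median correlations of 0.08 in Wild-type, 0.12 in S1P2-KO (lowest 0.05) and 0.02 in S1P3-KO, against -0.03, -0.03 and -0.02 for other numbers. They did not exceed 0.1 in every pair, and 2 of 10, 4 of 10 and 2 of 5 arrays correlated best with their own number, so the pairing was not settled and the fit without a block was kept. With a replicate block the S1P3-KO tissue count stayed at 3 and Calb1 at 0.41 (adjusted p = 0.0122). The block was not run for comparisons of sexes, and Gad2 and the dimmer Pvalb probe set were not tested at a filter on the 50th percentile. Signal over background was not measured apart from the MAS5 value, so its part in the wide errors of Gad2 was not tested.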
